A study of Rattus norvegicus with 12 samples.

Results

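The rat genes of 6 solute carrier (SLC) families that hold amino acid transporters were followed: SLC1, SLC3, SLC6, SLC7, SLC36 and SLC38. Members were chosen by symbol alone, as every gene named Slc1a, Slc3a, Slc6a, Slc7a, Slc36a or Slc38a and a number. The rule found 53 genes of 20400 in all. Of these, 47 were listed in the table of the BMSC libraries (18616 genes), 52 in the table of the BF libraries (19355 genes) and 46 in both. The 33 members with a mean of at least 10 normalized counts in one of the tables are described, and the other 20 are counted only. The family rule and the name "amino acid transporter" are not the same thing. SLC3 proteins are partner subunits rather than pores, and several SLC6 members carry creatine, taurine, betaine or neurotransmitters.

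RNA was sequenced from 12 libraries of rat bone marrow mesenchymal stem cells (BMSCs), the bone marrow stromal cells that can form cartilage, bone and fat, in 4 groups of 3. All cells are labelled wild type and, per the labels, all were kept in low-glucose medium with chondrogenic induction supplement. BMSC-C is the untreated control. The BMSC-CT cells were given CTGF, the connective tissue growth factor, for 1 week, followed by TGF-β1. BF-C and BF-D are labelled fibrotic BMSCs, without and with the taxane docetaxel, a drug that stabilises microtubules. The design text of the series calls a group of its cells induced fibrotic chondrocytes. How the BF cells were made, the doses and the time in docetaxel or TGF-β1 are not given in the sources used here. The labels do not say whether the replicates of a group came from separate cultures or animals, so p-values measure only the spread between these libraries, which may be technical.

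Amino acid transporters set which amino acids a cell can take up, exchange or release. The light chains of SLC7 reach the membrane only when bound to a heavy chain, Slc3a2 (CD98) or Slc3a1, and most of them exchange one amino acid for another. The cationic members of SLC7 carry arginine and lysine by themselves. SLC1 holds the sodium-driven glutamate transporters and the neutral exchangers, and SLC38 the sodium-coupled glutamine carriers. Several SLC36 and SLC38 proteins sit on the lysosome, where amino acids are sensed by the kinase complex mTORC1. When amino acids are short, the transcription factor ATF4 is known to raise several of these genes.

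Depth ran from 15580310 to 19870047 reads per library. BMSC-CT replicate 3 and BF-D replicate 2 stood apart from the rest. In BMSC-CT replicate 3, 14621 genes had reads, against at least 16100 in each other library. Its share of reads in ribosomal protein genes was 15.8%, where no other library was above 6.77%. That share was 2.94% in BF-D replicate 2 and no more than 1.87% elsewhere in the BF table. Markers listed for each cell type were summed as CPM, the reads of a gene per 1000000 reads of its library. The 16 macrophage markers summed to 9038 to 10861 in BMSC-C and 11483 to 14325 in BMSC-CT. That list split by gene: 5 of 16 rose and 2 fell by limma (unadjusted p under 0.05: 7 higher, 6 lower), with a median log2 fold change of -0.60. Lyz2 carried most of the higher sum, with a mean of 4066 CPM in BMSC-C and 8102 in BMSC-CT, while Adgre1 went from 3145 to 963. The 13 of them listed in the BF table summed to 42.7 to 44.4 in BF-C, with Mrc1 at 0, and 59.8 to 65.8 in BF-D. The 10 mesenchymal markers summed to 5486 to 5774 in BMSC-C and 5809 to 12623 in BMSC-CT, and to 54321 to 56743 in BF-C and 41151 to 51989 in BF-D. In the BMSC comparison 2 of these 10 rose and 3 fell by limma, with a median of -0.73. The sum followed Col1a1, at a mean of 1645 CPM in BMSC-C and 6614 in BMSC-CT, whereas Pdgfra went from 1009 to 107. In the BF cells most of the sum was Col1a1, at a mean of 46887 CPM in BF-C and 39032 in BF-D, whereas Thy1 went from 1358 to 1449. None of the 10 passed by limma in the BF comparison (unadjusted p under 0.05: 0 higher, 3 lower). Of the 6 chondrocyte markers, 5 were listed in each table, with Acan only in the BMSC table and Col2a1 only in the BF table. The listed ones summed to at most 6.25 in every library, and Col9a1 and Matn3 were at 0 in BMSC-CT. The 6 adipocyte markers summed to 450.1 to 702 in BMSC-C and 29.0 to 65.0 in BMSC-CT, and to 877 to 993 in BF-C and 1065 to 1099 in BF-D. The BMSC sums rest almost entirely on Lpl, at a mean of 541 and 40.0 CPM, which was the 1 gene of 5 tested that passed by limma. Fabp4 had 4.01 and 5.47. The BF sums also rest almost entirely on Lpl, at a mean of 941 CPM in BF-C and 1074 in BF-D, and none of the 6 passed there by limma. The listed endothelial markers summed to at most 3.98 in every library. In bulk samples, fewer cells of a type and less RNA per cell cannot be told apart, and the part of these markers in the results below was not tested.

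Some transporters were low in both libraries that stood apart. Each library was set against the mean of the other 2 of its group on log2(normalized count + 1), for the 31 members with a mean of at least 10 in both tables. Of the 31, 7 lay more than 1 below the others in BMSC-CT replicate 3, and 4 did so for BF-D replicate 2. All 4 of the latter were among the former: Slc6a6, Slc36a1, Slc7a2 and Slc38a1. The other 3, Slc7a11, Slc6a16 and Slc36a4, lay at -1.596, -2.68 and -2.89 in BMSC-CT replicate 3 and at -0.29, -0.20 and -0.94 in BF-D replicate 2. Of 12589 genes with such a mean in both tables, 27.1% lay more than 1 below in BMSC-CT replicate 3, 7.56% in BF-D replicate 2 and 6.20% in both. Slc6a6, the taurine transporter, had 4665 and 4095 normalized counts in BMSC-CT replicates 1 and 2 and 121 in replicate 3, and 1851, 697 and 1648 in the BF-D libraries. Slc36a1, a proton-coupled lysosomal amino acid carrier, had 1158, 1284 and 121 in BMSC-CT and 409.8, 169 and 340.4 in BF-D. Slc7a2, a cationic amino acid transporter, had 1307, 906 and 129 in BMSC-CT and 3376, 1008 and 3031 in BF-D. For these genes the library that stands apart sets the spread of its group. Across the 31 genes the deviations in both libraries had a Spearman rho of 0.621, given as a description over genes, which are not independent replicates. Their rho with gene length was -0.129 for BMSC-CT replicate 3 and 0.0238 for BF-D replicate 2 (n = 32 genes each). Over all genes, the log2 values of these libraries relative to their group's mean had a rho with gene length of -0.404 and -0.356. The counts of genes that passed in each comparison are also given without the library that stands apart.

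**Figure D1:**
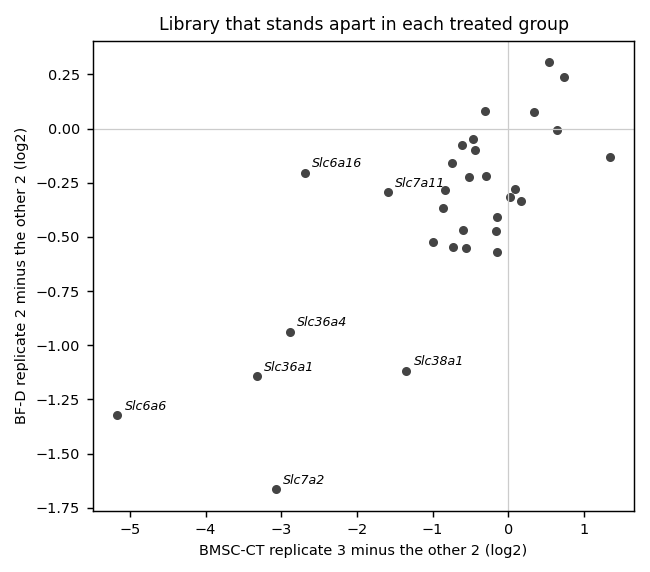
Deviation of BMSC-CT replicate 3 (x axis) and of BF-D replicate 2 (y axis) from the mean of the other 2 libraries of the same group, on log2(normalized count + 1), 1 point per transporter gene (31 genes). Named genes lie more than 1 below the others in at least 1 library, and Slc6a6, Slc36a1, Slc7a2 and Slc38a1 do so in both.

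Levels were compared between genes as RPKM, the CPM divided by gene length in kb. Slc3a2, the heavy chain that most SLC7 light chains need, was the highest member in BMSC-C at 326 ± 27.7 and in BMSC-CT at 791 ± 7.59 (mean ± SD, n = 3 here and for each level below). Slc38a2, the sodium-coupled neutral amino acid transporter SNAT2, was the highest in BF-C at 205 ± 3.67 and in BF-D at 194 ± 21.7. Slc3a2 came next in the BF cells at 94.2 ± 4.03 and 104 ± 9.95. In BMSC-C, Slc38a2 followed at 119 ± 17.0, then Slc7a5 (the leucine exchanger LAT1) at 88.3 ± 10.6, Slc7a2 at 75.8 ± 14.4 and Slc1a5 (the glutamine exchanger ASCT2) at 72.8 ± 11.0. The neighbours from Slc7a5 to Slc1a5 in that order differed by less than the larger of their SDs. In BMSC-CT the places behind Slc3a2 were held by Slc38a2 at 145 ± 76.4, Slc6a12 (a betaine and GABA carrier) at 101 ± 14.9, Slc7a5 at 84.9 ± 22.1 and Slc6a8 (the creatine transporter) at 73.4 ± 17.8, and each differed from the next by less than the larger SD.

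In the BF cells, Slc38a10 (93.4 ± 2.79 in BF-C and 85.0 ± 2.82 in BF-D), Slc7a2 (69.3 ± 0.330 and 56.8 ± 29.4) and the glutamate transporter Slc1a3 (46.7 ± 1.57 and 38.7 ± 2.49) followed Slc38a2 and Slc3a2. Slc38a10 and Slc3a2 lay within their SD of each other in BF-C. Other members stood at very different levels in the BMSC and BF cells. Slc6a12 was at 43.9 ± 9.51 in BMSC-C and 0.0498 ± 0.0674 in BF-C, from the third highest member of BMSC-CT to the lowest of the 33 in both BF groups. Slc7a3 was at 26.7 ± 2.52 in BMSC-C and 0.450 ± 0.0986 in BF-C, and Slc7a11, the cystine and glutamate exchanger xCT, at 34.6 ± 4.36 and 2.96 ± 0.161. In the other direction, Slc38a4 was at 1.84 ± 0.570 in BMSC-C and 11.7 ± 0.362 in BF-C. The BMSC and BF tables were normalized apart and share no control, so these differences were not tested, and the macrophage and mesenchymal markers differ between the same cells in the values above. Summed over members, the CPM were 3607 ± 85.1 in BMSC-C and 4425 ± 1053 in BMSC-CT, and 2693 ± 27.0 in BF-C and 2521 ± 292 in BF-D. By library, the sums were 5174, 4881 and 3221 in BMSC-CT and 2672, 2184 and 2706 in BF-D. The library that stands apart was the lowest in each of these groups. The sums ran from 3535 to 3701 in BMSC-C and from 2665 to 2719 in BF-C.

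**Figure D2:**
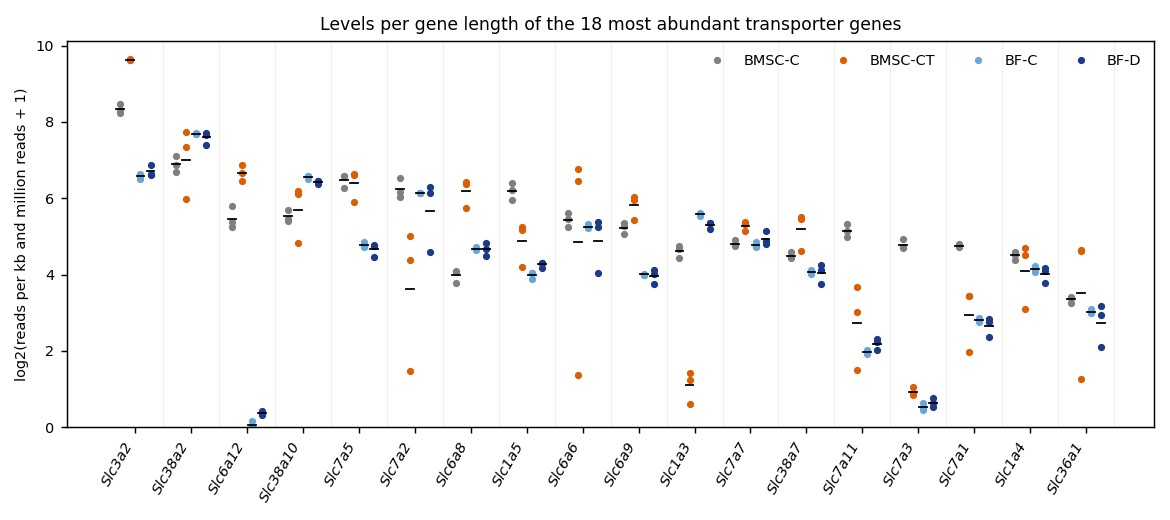
Levels of the 18 most abundant of the described transporter genes, as log2(RPKM + 1), where RPKM is CPM per kb of gene length, with 1 point per library and a black line at the mean of the 3 libraries of a group. Slc3a2 is highest in the BMSC groups and Slc38a2 in the BF groups, and Slc6a12 and Slc7a3 lie near 0 in the BF groups.

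The comparison of BMSC-CT with BMSC-C asks what CTGF followed by TGF-β1 does to the cells. The creatine transporter Slc6a8, the heavy chain Slc3a2, the betaine carrier Slc6a12, the lysosomal glutamine carrier Slc38a7, the glycine transporter Slc6a9 and the light chain Slc7a7 rose. The arginine carriers Slc7a3 and Slc7a1, the glutamate transporters Slc1a3 and Slc1a1, the vesicular carrier Slc6a17, the cystine exchanger Slc7a11 and the glutamine exchanger Slc1a5 fell. These were 6 and 7 of 42 members tested by limma on log2(normalized count + 1), at a Benjamini-Hochberg adjusted p under 0.05 over all genes tested, and the other 29 did not pass. Of all 16818 genes tested, 18.6% passed (7.7% higher and 10.9% lower), against 31.0% of the members. A fold change on this scale understates the change of low genes. The BMSC-C and BMSC-CT libraries did not overlap for 23 members (10 higher and 13 lower), or 54.8%, against 52.2% of all genes (23.3% higher and 28.9% lower), a share near that of all genes. The median log2 fold change was 0.06 over the members tested and -0.15 over all genes tested.

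Without BMSC-CT replicate 3, 11 members rose and 9 fell, against 18.3% and 22.1% of all genes (40.4% in all). All 13 calls were kept. Without BMSC-CT replicate 2, 8 members passed, without BMSC-C replicate 1 or replicate 2, 5 members each, and without BMSC-C replicate 3, 7 members. The count over all genes was lower there too, at 7.26% without BMSC-CT replicate 2 and 4.85%, 4.42% and 7.51% without BMSC-C replicates 1, 2 and 3. The calls of Slc7a3, Slc6a8, Slc1a3, Slc6a17 and Slc1a1 held whichever of the 6 libraries was left out. edgeR on the recovered reads also called 6 higher and 7 lower, against 17.6% of all genes (8.05% higher and 9.51% lower). DESeq2 called 7 and 9, against 32.9% of all genes (16.5% and 16.4%). With each library scaled to its total reads, which moved the median of all genes to -0.53, 3 members rose and 7 fell.

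**Figure D3:**
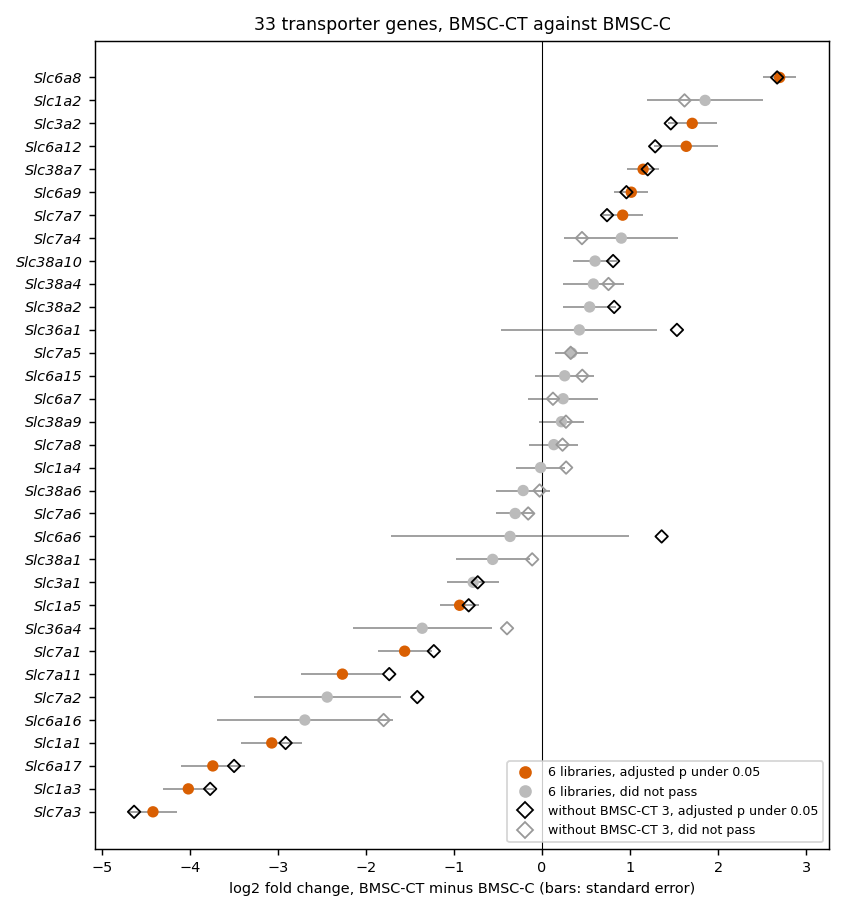
Log2 fold change of each of the 33 described transporter genes, BMSC-CT minus BMSC-C on log2(normalized count + 1), with the standard error as bars (3 libraries a group), and diamonds for the same fit without BMSC-CT replicate 3. Filled orange points passed an adjusted p under 0.05 with 6 libraries, and the diamonds of Slc6a6 and Slc36a1 lie far to the right of their points.

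Among the glutamate transporters of SLC1, Slc1a3 and Slc1a1 fell. Slc1a3 (GLAST), a sodium-driven glutamate and aspartate carrier, had 1432, 1483 and 1247 normalized counts in the BMSC-C libraries and 87.7, 115 and 59.6 in the BMSC-CT libraries (1387 ± 124 and 87.4 ± 27.7, SD, n = 3). The groups lay far apart, with a log2 fold change of -4.02 ± 0.29 (SE; limma adjusted p = 0.00081). Slc1a1, the glutamate and cysteine carrier EAAC1, had 209.7, 151 and 178 in BMSC-C and 27.1, 19.0 and 16.1 in BMSC-CT. Every BMSC-CT library was lower than every BMSC-C library, with a log2 fold change of -3.07 ± 0.35 (SE; limma adjusted p = 0.00303). Slc1a2 (GLT-1) was near the detection limit, at 1.63, 3.38 and 0.867 in BMSC-C and 3.62, 14.8 and 12.9 in BMSC-CT. It did not pass (log2 1.85 ± 0.66 SE, limma adjusted p = 0.0923), passed without BMSC-CT replicate 1 (log2 2.41, limma adjusted p = 0.0429) and passed with quantile normalization (log2 2.55, limma adjusted p = 0.0458). Of the 5 glutamate and aspartate carriers tested, 2 fell and 3 did not pass.

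The neutral exchangers of SLC1 differed from each other in their values. Slc1a5 (ASCT2), which takes up glutamine in exchange for other neutral amino acids, had 2469.8, 2907 and 3503 in BMSC-C and 1537, 1757 and 1327 in BMSC-CT. Its groups did not overlap, and it fell by 0.94 ± 0.22 on the log2 scale (SE; limma adjusted p = 0.0319). Leaving out any library other than BMSC-CT replicate 3 ended that call. The limma adjusted p was 0.0542 without BMSC-CT replicate 1, 0.0742 without BMSC-CT replicate 2, and 0.0803, 0.133 and 0.103 without BMSC-C replicates 1, 2 and 3. It was 0.0750 once each library's dependence on gene length was removed (log2 -0.62). Slc1a4 (ASCT1), which exchanges serine, alanine and cysteine, had 1243, 1298 and 1173 in BMSC-C and 1536, 1454 and 818 in BMSC-CT, where replicate 3 was lowest. Its groups overlapped (log2 -0.02 ± 0.28 SE, limma adjusted p = 0.969).

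The heavy chain Slc3a2 rose while its most abundant light chain, Slc7a5, did not pass. Slc3a2 had 9024, 9471 and 11137 in BMSC-C and 25859.9, 28396 and 45008 in BMSC-CT (9877 ± 1114 and 33088 ± 10401, SD, n = 3). Every BMSC-CT library was more than 2-fold above every BMSC-C library, with a log2 fold change of 1.71 ± 0.28 (SE; limma adjusted p = 0.0107). The call was lost without BMSC-C replicate 1 (limma adjusted p = 0.0712) and without BMSC-C replicate 2 (limma adjusted p = 0.0729). The wide spread of the BMSC-CT normalized counts was not there in RPKM, where the level was 791 ± 7.59. In BMSC-CT replicate 3, 1 read was worth 1.61 normalized counts, against at most 1.06 in the other BMSC libraries. Slc7a5 (LAT1), the leucine exchanger that pairs with Slc3a2, had 3832, 4706 and 4982 in BMSC-C and 5318, 5919 and 5715 in BMSC-CT. The libraries did not overlap, but the difference was small (log2 0.33 ± 0.19 SE, limma adjusted p = 0.235). Slc3a1, the heavy chain of kidney and gut cystine transport, was low, at 105, 90.5 and 84.9 in BMSC-C and 50.6, 61.2 and 49.9 in BMSC-CT. It did not pass (log2 -0.78 ± 0.30 SE, limma adjusted p = 0.104), and passed without BMSC-CT replicate 3 (log2 -0.73, limma adjusted p = 0.0455) and with DESeq2 (log2 -0.79, DESeq2 adjusted p = 0.0279).

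The other light chains moved in different directions. Slc7a7, the light chain that exports arginine in exchange for neutral amino acids, had 681, 659.9 and 781 in BMSC-C and 1112, 1245 and 1704 in BMSC-CT. The groups did not overlap, and it rose by 0.92 ± 0.23 on the log2 scale (SE; limma adjusted p = 0.038). This call was lost without BMSC-CT replicate 2 (limma adjusted p = 0.0996) and without BMSC-C replicates 1, 2 and 3 (limma adjusted p = 0.144, 0.158 and 0.0910), and when libraries were scaled to total reads (log2 0.49, limma adjusted p = 0.1197). Slc7a11 (xCT), which imports cystine for glutathione synthesis in exchange for glutamate, had 5076, 4397 and 4129 in BMSC-C and 1664, 1104 and 448 in BMSC-CT. Every BMSC-CT library was lower, replicate 3 most so, with a log2 fold change of -2.27 ± 0.47 (SE; limma adjusted p = 0.0226). Its call was lost without BMSC-CT replicate 2 (limma adjusted p = 0.0657) and without BMSC-C replicates 1, 2 and 3 (limma adjusted p = 0.106, 0.0956 and 0.0761). The exchangers Slc7a6 (log2 -0.31 ± 0.21 SE, limma adjusted p = 0.313) and Slc7a8 (log2 0.13 ± 0.28 SE, limma adjusted p = 0.734) did not pass. Of 5 light chains tested, 1 rose, 1 fell and 3 did not pass.

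The group of cationic amino acid transporters, whose known carriers bring in arginine, lysine and ornithine, was lower in BMSC-CT for 3 of the 4 tested members. Of these, 2 passed. Slc7a3 had 1135, 1297 and 1153 in BMSC-C and 52.4, 42.2 and 74.1 in BMSC-CT (1195 ± 88.7 and 56.2 ± 16.3, SD, n = 3). The lowest BMSC-C library was more than 10-fold above the highest BMSC-CT library, and with a log2 fold change of -4.42 ± 0.28 (SE; limma adjusted p = 0.000513) it was the most reduced of the described members. Slc7a1, the widely expressed carrier CAT1, had 2508, 2541 and 2547 in BMSC-C and 1042, 1118 and 541 in BMSC-CT. It fell by 1.56 ± 0.31 on the log2 scale (SE; limma adjusted p = 0.0193), and the groups did not overlap. Its call was lost without BMSC-C replicates 1, 2 and 3 (limma adjusted p = 0.0895, 0.0930 and 0.0736). Slc7a2, the carrier that supplies arginine in activated macrophages, had 2732, 2442 and 3694 in BMSC-C and 1307, 906 and 129 in BMSC-CT. The groups did not overlap, but replicate 3 lay far below the other BMSC-CT libraries, and the gene did not pass (log2 -2.44 ± 0.83 SE, limma adjusted p = 0.0839). It passed without BMSC-CT replicate 3 (log2 -1.42, limma adjusted p = 0.00703), without BMSC-CT replicate 1 (log2 -3.08, limma adjusted p = 0.0460), with quantile normalization (log2 -2.46, limma adjusted p = 0.0432) and with DESeq2 (log2 -1.92, DESeq2 adjusted p = 0.0335). Slc7a4 was low and its groups overlapped (log2 0.90 ± 0.65 SE, limma adjusted p = 0.327).

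The SLC6 members that rose include carriers of compounds that are not building blocks of protein. Slc6a8, the sodium- and chloride-driven creatine transporter, had 732, 911 and 935 in BMSC-C and 5354, 5536 and 5778 in BMSC-CT (859.5 ± 111 and 5556 ± 213, SD, n = 3). The BMSC-CT libraries lay far above BMSC-C, with a log2 fold change of 2.70 ± 0.19 (SE; limma adjusted p = 0.000679). They lay close together as normalized counts, but their RPKM given above spread more widely. Slc6a12, which carries betaine and GABA and is known for uptake of betaine under osmotic stress, had 1493, 1617 and 2322 in BMSC-C and 3858, 4855 and 9015 in BMSC-CT. The groups did not overlap, replicate 3 was highest in each, and the log2 fold change was 1.64 ± 0.36 (SE; limma adjusted p = 0.0271). Its call was lost without BMSC-CT replicate 2 (limma adjusted p = 0.0744) and without BMSC-C replicates 1, 2 and 3 (limma adjusted p = 0.122, 0.121 and 0.0617). Slc6a6, the taurine transporter, had 1475, 1678 and 1999 in BMSC-C and, as above, 4665, 4095 and 121 in BMSC-CT. The direction of its difference depended on BMSC-CT replicate 3. With all libraries the log2 fold change was -0.36 ± 1.36 (SE; limma adjusted p = 0.854), and without that library it was 1.36 (limma adjusted p = 0.00218).

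Among the SLC6 amino acid carriers, 1 rose, 1 fell and 4 did not pass. Slc6a9 (GLYT1), a glycine transporter best known from glia and red blood cell precursors, had 1566, 1782 and 2000.0 in BMSC-C and 3209.9, 3701 and 3866 in BMSC-CT. The groups did not overlap, and it rose by 1.01 ± 0.19 on the log2 scale (SE; limma adjusted p = 0.0172). Its call was lost without BMSC-CT replicate 2 (limma adjusted p = 0.0724), without BMSC-C replicates 1, 2 and 3 (limma adjusted p = 0.0872, 0.0951 and 0.0505), and when libraries were scaled to total reads (log2 0.59, limma adjusted p = 0.123). Slc6a17, a neutral amino acid carrier of synaptic vesicles, had 306, 237 and 237 in BMSC-C and 19.0, 25.3 and 12.9 in BMSC-CT. It was about an order of magnitude lower in every BMSC-CT library, with a log2 fold change of -3.74 ± 0.36 (SE; limma adjusted p = 0.00181). The orphan carrier Slc6a16 had 28.5, 26.2 and 13.0 in BMSC-C and 1.81, 13.7 and 0 in BMSC-CT. It did not pass (log2 -2.70 ± 1.00 SE, limma adjusted p = 0.101) and passed without BMSC-CT replicate 2 (log2 -3.74, limma adjusted p = 0.0410). Slc6a15, a carrier of branched-chain amino acids and proline (log2 0.26 ± 0.34 SE, limma adjusted p = 0.579), and the proline transporter Slc6a7 (log2 0.24 ± 0.40 SE, limma adjusted p = 0.668) did not pass.

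**Figure D4:**
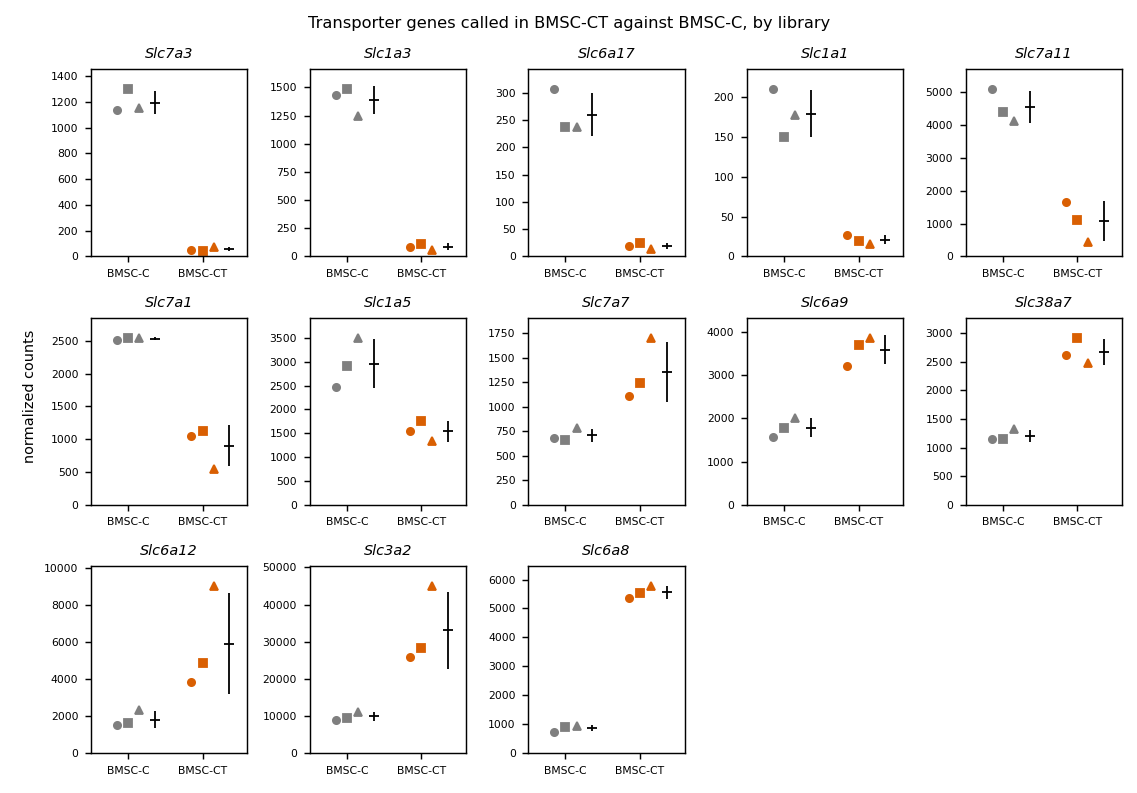
Normalized counts of the 13 transporter genes that passed an adjusted p under 0.05 in BMSC-CT against BMSC-C, on linear axes that start at 0. Points are libraries (circle, square and triangle for replicates 1, 2 and 3) and the black line is the mean with its SD. The groups do not overlap in any of the 13 panels.

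Among the SLC38 carriers, 1 of 10 tested members rose and 9 did not pass. Slc38a7, which moves glutamine and asparagine out of lysosomes, had 1144, 1145 and 1329 in BMSC-C and 2615, 2924 and 2479.9 in BMSC-CT. The groups did not overlap, with a log2 fold change of 1.15 ± 0.18 (SE; limma adjusted p = 0.00956). The call was lost without BMSC-CT replicate 2 (limma adjusted p = 0.0522), without BMSC-C replicates 1 and 2 (limma adjusted p = 0.0608 and 0.0717), and when libraries were scaled to total reads (log2 0.73, limma adjusted p = 0.129). Slc38a2 (SNAT2), the glutamine and alanine carrier that cells raise when amino acids are short, had 9224, 7806 and 7259 in BMSC-C and 15736, 12828 and 7960.0 in BMSC-CT. Replicates 1 and 2 of BMSC-CT were above every BMSC-C library, replicate 3 was within their range, and the gene did not pass (log2 0.54 ± 0.30 SE, limma adjusted p = 0.218). Slc38a10 had 2281, 2346 and 2908 in BMSC-C and 4094, 4660.2 and 2852 in BMSC-CT, with the same layout (log2 0.60 ± 0.25 SE, limma adjusted p = 0.126). Without BMSC-CT replicate 3 both passed, Slc38a2 at a log2 fold change of 0.82 (limma adjusted p = 0.0131) and Slc38a10 at 0.81 (limma adjusted p = 0.00966). They also passed with the gene-length trend removed, Slc38a2 at 1.14 (limma adjusted p = 0.00653), Slc38a10 at 1.09 (limma adjusted p = 0.0145) and, with them, Slc38a4 at 1.11 (limma adjusted p = 0.0461). Slc38a1 (SNAT1), Slc38a4, Slc38a6 and the lysosomal arginine sensor Slc38a9 did not pass (limma adjusted p from 0.251 to 0.609).

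Of the SLC36 carriers, none of 3 tested passed with all libraries by limma, and 1 was higher at an unadjusted p under 0.05. edgeR called 0 of them and DESeq2 called 1, the low Slc36a3. Slc36a1, which releases small neutral amino acids from lysosomes and is linked to mTORC1, had 385, 425 and 458 in BMSC-C and 1158, 1284 and 121 in BMSC-CT. Its replicates 1 and 2 were above every BMSC-C library and replicate 3 below every one (log2 0.42 ± 0.89 SE, limma adjusted p = 0.736). Without BMSC-CT replicate 3 it passed, at a log2 fold change of 1.53 (limma adjusted p = 0.000719). Slc36a4 had 385, 364 and 319.8 in BMSC-C and 315, 230.1 and 35.4 in BMSC-CT, and did not pass (log2 -1.36 ± 0.79 SE, limma adjusted p = 0.237). The third, Slc36a3, had a mean under 10 normalized counts in both tables and was singled out after its values were seen, because it passed without BMSC-CT replicate 3 (log2 2.21, limma adjusted p = 0.0272).

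The promoters of the members were read for motifs of the regulators ATF4, TFEB and NRF2. Gene lists tied to ATF4 and NRF2 are described below. Windows of 300 bases, from 250 before to 50 after the RefSeq start of a gene on GRCr8, were found for 26 of the 33 described members (30 windows). Both strands were searched. TGATGNAA, the C/EBP-ATF response element that ATF4 is known to bind, was in the windows of 3 member genes, Slc7a1, Slc38a1 and Slc1a4, and in 3.98% of all 33469 windows. TCACGTGA, the E-box of lysosomal genes that TFEB is known to bind, was in the window of 1 member gene, Slc36a1, and in 0.777% of all windows. TGACNNNGC, the core of the antioxidant response element bound by NRF2, was in those of 7 member genes and in 12.1% of all windows, and in Slc36a1 it overlaps the E-box. The match begins 14 bases before the start in Slc36a1 (chr10:39824785-39825084, plus strand) and 30 before in Slc7a1 (chr12:11664238-11664537, plus strand). It begins 142 before in Slc38a1 (chr7:129681352-129681651, minus strand) and 235 before in Slc1a4 (chr14:98761513-98761812, minus strand). The windows are shown 5′ to 3′ on the gene's strand, with the TCACGTGA or TGATGNAA match in capitals, which in Slc1a4 is on the reverse strand.
Slc36a1: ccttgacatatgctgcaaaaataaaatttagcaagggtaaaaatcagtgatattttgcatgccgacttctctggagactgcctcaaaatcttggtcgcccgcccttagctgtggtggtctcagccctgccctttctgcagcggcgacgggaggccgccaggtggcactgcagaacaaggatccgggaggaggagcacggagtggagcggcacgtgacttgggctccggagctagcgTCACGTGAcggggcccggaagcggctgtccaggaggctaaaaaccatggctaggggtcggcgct
Slc7a1: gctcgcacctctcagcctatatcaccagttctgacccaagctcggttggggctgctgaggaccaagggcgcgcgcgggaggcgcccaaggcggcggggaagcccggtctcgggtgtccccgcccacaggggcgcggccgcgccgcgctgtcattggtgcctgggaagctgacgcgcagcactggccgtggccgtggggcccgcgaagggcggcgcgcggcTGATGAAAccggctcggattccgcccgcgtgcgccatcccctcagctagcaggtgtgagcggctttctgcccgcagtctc
Slc38a1: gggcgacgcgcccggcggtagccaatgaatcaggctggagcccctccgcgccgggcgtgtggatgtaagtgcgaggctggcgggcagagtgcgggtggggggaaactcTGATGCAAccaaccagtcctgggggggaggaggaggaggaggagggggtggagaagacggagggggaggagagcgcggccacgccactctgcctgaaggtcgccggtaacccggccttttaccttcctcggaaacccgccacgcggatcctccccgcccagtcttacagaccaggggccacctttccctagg
Slc1a4: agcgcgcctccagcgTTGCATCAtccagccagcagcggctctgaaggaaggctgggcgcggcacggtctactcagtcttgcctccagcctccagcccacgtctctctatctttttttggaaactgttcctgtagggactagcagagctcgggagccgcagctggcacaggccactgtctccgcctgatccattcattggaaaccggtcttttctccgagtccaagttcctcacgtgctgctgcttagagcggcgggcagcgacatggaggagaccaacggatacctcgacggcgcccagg
Of these genes, Slc7a1 fell, Slc36a1 passed only when BMSC-CT replicate 3 was left out, of the settings run with limma, and Slc38a1 and Slc1a4 passed in none of them. A match is a run of letters, and binding was not measured.

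Genes around the transporters were followed in 5 lists. Counts by limma with all 6 libraries are to be read beside the 7.7% of all genes that were higher and the 10.9% that were lower. These shares were 8.05% and 9.51% by edgeR, 16.5% and 16.4% by DESeq2, and 18.3% and 22.1% without BMSC-CT replicate 3. Without BMSC-CT replicate 2 or 1 of the BMSC-C libraries, 744 to 1263 of all 16818 genes passed in either direction. Among 29 genes of mTORC1 amino acid sensing, 7 rose and 0 fell by limma (12 and 3 at an unadjusted p under 0.05, 6 and 0 by edgeR, 12 and 1 by DESeq2), and 11 and 3 passed without BMSC-CT replicate 3. Only 1 gene passed, as higher, without BMSC-CT replicate 2 and without BMSC-C replicate 1 or 2, and 2 without BMSC-C replicate 3. Rragd, a GTPase of the Rag family that brings mTORC1 to the lysosome, went from 112 ± 6.07 normalized counts to 697 ± 92.5 (SD, n = 3; log2 2.61 ± 0.22 SE, limma adjusted p = 0.00122). Flcn, which acts on the Rag GTPases, rose by 1.26 on the log2 scale (limma adjusted p = 0.0112). Its call was lost without BMSC-CT replicate 2 (limma adjusted p = 0.0550), without BMSC-C replicates 1 and 2 (limma adjusted p = 0.0638 and 0.0698) and with total-read scaling (limma adjusted p = 0.131). The median log2 fold change of the list was 0.31, against -0.15 over all genes tested. Among 12 other amino acid carriers tested, 3 rose and 0 fell by limma (5 and 0 at an unadjusted p under 0.05, 3 and 0 by edgeR, 5 and 0 by DESeq2, 5 and 0 without BMSC-CT replicate 3). The 3 became 1 without BMSC-CT replicate 2 and without BMSC-C replicate 1 or 2, and 2 without BMSC-C replicate 3. Slc15a4, a lysosomal histidine and peptide carrier, went from 676 ± 159 to 2438 ± 154 (SD, n = 3; log2 1.87 ± 0.23 SE, limma adjusted p = 0.00401).

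The genes listed for the amino acid response, in which ATF4 acts, did not move as a block. Of 14 tested, 4 rose and 3 fell, against 6 and 4 when BMSC-CT replicate 3 was left out. They were 3 and 1 without BMSC-CT replicate 2, and 2 and 1 without any one BMSC-C library. Asns, which makes asparagine, fell from 5035 ± 487 to 1612 ± 182 (SD, n = 3; log2 -1.64 ± 0.19 SE, limma adjusted p = 0.0031). Trib3, a pseudokinase of the same response, rose from 1768 ± 263 to 8876 ± 3772 (SD, n = 3; log2 2.26 ± 0.32 SE, limma adjusted p = 0.00676). Ddit3 (CHOP), a stress transcription factor, rose from 1179 ± 99.5 to 34815 ± 31585 (SD, n = 3; log2 4.52 ± 0.57 SE, limma adjusted p = 0.00449), with an SD close to its mean. Of 20 enzymes of amino acid use, 2 rose and 6 fell, against 2 and 8 when that library was left out. No enzyme rose and 3 fell without BMSC-CT replicate 2 or BMSC-C replicate 3, and 2 fell without BMSC-C replicate 1 or 2. Psat1, of serine synthesis, fell from 1473 ± 87.3 to 243 ± 89.8 (SD, n = 3; log2 -2.65 ± 0.29 SE, limma adjusted p = 0.00257). Arg1, which splits arginine, fell from 6496 ± 1328 to 1789 ± 55.6 (SD, n = 3; log2 -1.84 ± 0.21 SE, limma adjusted p = 0.00303), in the same libraries in which the arginine carriers Slc7a3 and Slc7a1 were lower. Of 11 genes of glutathione synthesis and NRF2, 2 rose and 1 fell, and 4 and 2 did so when BMSC-CT replicate 3 was left out. These became 1 and 1 without BMSC-CT replicate 2, and 0 and 1 without any one BMSC-C library. Cth, which makes cysteine, fell from 344 ± 123 to 36.3 ± 8.71 (SD, n = 3; log2 -3.18 ± 0.37 SE, limma adjusted p = 0.00319), beside the cystine importer Slc7a11.

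The comparison of BF-D with BF-C asks what docetaxel does to the fibrotic cells. By limma, 0 of 44 transporters tested passed, as did 0 by edgeR and 0 by DESeq2, while an unadjusted p under 0.05 was reached by 2 higher and 4 lower members. Of all 17076 genes tested, 0.0117% passed by limma and by edgeR (0.00586% higher and 0.00586% lower by each) and 0.422% by DESeq2 (0.217% and 0.205%). The libraries of BF-C and BF-D did not overlap for 8 members, 2 higher and 6 lower in BF-D, or 18.2%, against 16.8% of all genes (7.78% higher and 9.04% lower), a share near that of all genes. The median log2 fold change was -0.15 over the members tested and -0.00 over all genes tested. Without BF-D replicate 2, 2 members fell, where 1.43% of all genes passed (0.673% higher and 0.761% lower). In that fit the median log2 fold change was -0.0045 over the members tested and -0.0043 over all genes tested.

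Slc38a4 (SNAT4), a carrier of neutral amino acids, had 821, 781 and 769 normalized counts in BF-C and 579, 519.7 and 635 in BF-D (790.2 ± 27.3 and 578 ± 57.5, SD, n = 3). Every BF-D library was lower, with a log2 fold change of -0.46 ± 0.11 (SE; limma adjusted p = 0.528), and without BF-D replicate 2 it passed at -0.38 (limma adjusted p = 0.0193). Slc1a3, the glutamate transporter, had 3142, 3231 and 2995 in BF-C and 2650.2, 2359 and 2621 in BF-D. It too was lower in every BF-D library, by a small margin (log2 -0.30 ± 0.09 SE, limma adjusted p = 0.706), and passed without BF-D replicate 2 at -0.24 (limma adjusted p = 0.0237). Slc1a1 had 451, 402 and 376 in BF-C and 320.4, 317 and 336 in BF-D (log2 -0.33 ± 0.12 SE, limma adjusted p = 0.706). Slc7a8 (LAT2), a light chain for neutral amino acids, had 148, 147 and 156 in BF-C and 116, 103 and 124 in BF-D (log2 -0.40 ± 0.15 SE, limma adjusted p = 0.706). In both of these genes the BF-D libraries lay below all BF-C libraries. Slc1a5 had 713, 636 and 713 in BF-C and 777, 861 and 855 in BF-D (log2 0.27 ± 0.10 SE, limma adjusted p = 0.706), all higher. Slc38a10 had 6000.0, 6025 and 5656 in BF-C and 5355, 5089.8 and 5385 in BF-D, all lower (log2 -0.16 ± 0.08 SE, limma adjusted p = 0.706). Slc6a12 was close to absent in BF-C, at 5.93, 1.07 and 0, and had 12.8, 11.6 and 15.7 in BF-D, all higher (log2 2.55 ± 0.70 SE, limma adjusted p = 0.706). The last of the 8, Slc1a7, averaged under 10 normalized counts in both tables and is named because the count is small.

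**Figure D5:**
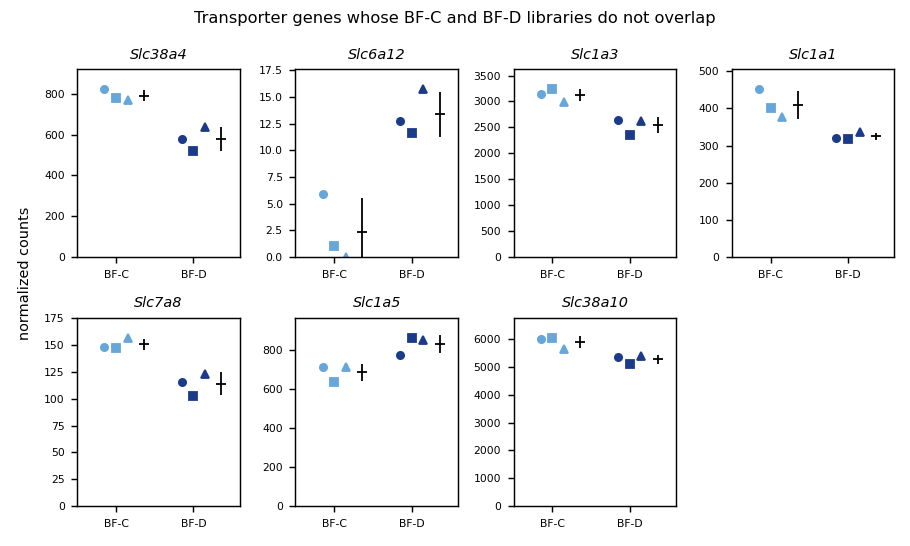
Normalized counts of the 7 described transporter genes whose BF-C and BF-D libraries do not overlap, on linear axes that start at 0, with 1 point per library (circle, square and triangle for replicates 1, 2 and 3) and the mean with its SD in black. The groups lie close together in 6 of the panels, and Slc6a12 stays under 16 normalized counts.

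Of the abundant members, Slc38a2, Slc3a2 and Slc7a5 differed little between BF-C and BF-D. Slc38a10 and Slc1a3, also abundant, were lower in every BF-D library, as given above. Slc38a2 had 16349, 15855 and 15688 in BF-C and 15570.1, 12957 and 15943 in BF-D, and its groups overlapped (log2 -0.11 ± 0.10 SE, limma adjusted p = 0.727). Slc3a2 had 3129, 3239 and 3374 in BF-C and 3359, 3917 and 3289 in BF-D, also overlapping (log2 0.11 ± 0.09 SE, limma adjusted p = 0.716). Slc7a5 had 1517, 1633 and 1463 in BF-C and 1496, 1203 and 1502 in BF-D (log2 -0.14 ± 0.11 SE, limma adjusted p = 0.712). In Slc38a2 and Slc7a5, BF-D replicate 2 was the lowest library, and in Slc3a2 it was the highest. Slc7a2 had 3065, 3069 and 3064 in BF-C and 3376, 1008 and 3031 in BF-D, and its groups overlapped (log2 -0.49 ± 0.40 SE, limma adjusted p = 0.714). Of the members that passed in the BMSC comparison, Slc6a8 (log2 -0.05 ± 0.11 SE, limma adjusted p = 0.886), Slc38a7 (log2 -0.06 ± 0.14 SE, limma adjusted p = 0.886) and Slc6a9 (log2 -0.07 ± 0.12 SE, limma adjusted p = 0.850) were nearest to 0 here. The difference between the BMSC and BF comparisons was not tested.

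The authors' deposited table of KEGG terms for BF-D against BF-C lists 20 terms, of which Protein digestion and absorption holds 15 genes, 2 up and 13 down, at the authors' adjusted p of 0.00309. Slc1a5 is in it as up, and Slc1a1 and Slc7a8 as down. In the authors' deposited table of genes, the log2 fold changes of Slc1a5, Slc1a1 and Slc7a8 are 0.27, -0.34 and -0.40, with the authors' adjusted p of 0.767, 0.716 and 0.822. None of these 3 passed an adjusted threshold in that table. Of the lists around the transporters, none had a gene that passed by limma, edgeR or DESeq2 in BF-D against BF-C. At an unadjusted p under 0.05 by limma, 1 of 13 other amino acid carriers, 1 of 14 genes of the amino acid response and 2 of 20 enzymes were higher, 1 enzyme was lower, and 0 of 29 genes of mTORC1 sensing and 0 of 12 genes of glutathione synthesis and NRF2 were higher or lower. Without BF-D replicate 2, 1 enzyme passed, Odc1, which makes polyamines from ornithine (log2 0.33, limma adjusted p = 0.00135), and no gene of the other 4 lists did.

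The 20 members that are not described averaged under 10 normalized counts in each table that lists them. They include carriers known from the brain, kidney and gut, such as the serotonin transporter Slc6a4, the dopamine transporter Slc6a3 and the kidney light chain Slc7a9. A mean of at least 1 was needed for a test, which left 42 of 47 listed members in the BMSC table and 44 of 52 in the BF table, all 33 described members among them. None of the 20 passed by limma in either comparison with all libraries.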

How the data were processed

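RNA-seq values of 12 rat libraries, 3 in each of 4 groups, were used as deposited. Per the file headers, the authors give 1 signal value per gene and library, with 1 table for each comparison; each library's deposited signal is its reads over a size factor, called normalized counts here. Reads could be recovered, since 100% of the values came out whole (tolerance 0.01 of a read). The authors deposited log2 fold changes and p-values beside them, which are cited only where named. The aligner Bowtie 0.12.2 and the mouse build mm8 are named per the submitters' processing notes. The genes carry rat Ensembl identifiers, so the rat build is not known and no coordinates of the files are printed. The counting tool, and whether it used strand, are not given in the sources used here. Gene lengths were taken as deposited. Values of 0 columns were left without a sample.

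Comparisons used limma 3.58.1 in R 4.3.3 (eBayes, trended prior) on log2(normalized count + 1) of the 6 libraries of a table, for genes with a mean of at least 1, with Benjamini-Hochberg adjustment over all genes and a threshold of 0.05. The fit was checked on simulated counts. These held no library that stands apart, so the check does not cover that feature of the data. edgeR 4.0.16 (quasi-likelihood) and DESeq2 1.42.0 on recovered reads, other pseudocounts, filters and scalings, removal of each library's trend with gene length and each library left out were alternatives. The 20 members under a mean of 10 were left out of the description. Every described member could be named, with all libraries given for members that passed and for the 5 of highest level, and up to 4 genes of each other list by smallest adjusted p. Values of other members were added to show libraries that stand apart or groups that do not overlap. Members, lists and rules were chosen with earlier results of these data known. Promoter windows came from RefSeq (GRCr8), matched by symbol.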

Additional observations from a re-analysis of the deposited data

How the results depend on the processing

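For BMSC-CT against BMSC-C, the count of transporters that passed was 13. It lay between 10 and 16 under other pseudocounts, filters, scalings, tests and the removal of the trend with gene length, and between 5 and 20 with 1 library left out. Over all genes, 3134 passed, against 5531 by DESeq2 and 744 to 6797 with 1 library left out. With 1 library left out, the log2 fold change of Slc6a6 ran from -1.27 to 1.36, the latter without BMSC-CT replicate 3. The median of all genes was -0.15 as deposited, -0.53 scaled to total reads and 0.08 after quantile normalization. For BF-D against BF-C, 0 transporters passed, and 0 to 2 with 1 library left out. Over all genes 2 passed, against 0 with a filter on a mean of 10, 0 by limma-voom, 72 by DESeq2, 11 with the gene-length trend removed and 0 to 245 with 1 library left out. Replicates share numbers between groups. The deviations of same-numbered libraries had correlations from -0.0209 to 0.199 in the BMSC table and from -0.00285 to 0.0196 in the BF table. The control library that correlated most had the same number for BMSC-CT replicates 1 and 3 and BF-D replicates 1 and 2. It had another number for BMSC-CT replicate 2 and BF-D replicate 3. With 3 libraries a group, whose deviations are not independent, these values cannot settle whether replicates were paired. With the replicate number as a block, 12 transporters passed in the BMSC comparison (Slc1a5 at a limma adjusted p of 0.0553 did not) and 0 in the BF comparison, and over all genes 3003 and 0. Depth limits the members under 10 normalized counts, for which a difference of few reads could be missed.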
